A study of Mus musculus with 21 samples.

Results

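Integrins and other receptors for the extracellular matrix were followed in mesenchymal cells sorted from mouse bone marrow with and without human leukemia. The members were chosen by name as receptors that bind matrix: integrin chains, discoidin receptors, syndecans, glypicans, dystroglycan (Dag1), Cd44 and Mrc2. All 32 genes listed were found among the 26852 genes of the table. A filter on low values was passed by 30 of the 32. It asked for a mean over all libraries of at least 3.32 on the log2 scale explained below, the log2 of 10 normalized counts. Itgb6 and Itgb7 did not pass it.

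Integrins are pairs of an alpha and a beta chain that span the membrane and tie matrix proteins outside the cell to actin inside it, and the alpha chain largely sets which ligand is bound. Discoidin receptors are tyrosine kinases switched on by collagen, while syndecans and glypicans are cell-surface proteoglycans whose heparan sulfate chains hold growth factors and matrix proteins. In bone marrow, stromal cells both lay down matrix and hold on to it through these receptors, and blood cells use integrins of their own to adhere to the stroma.

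RNA-seq of sorted Nes-low cells was available for 21 libraries from NSG mice carrying a Nestin reporter, whose weak immune system lets human cells engraft. The ctrl group held 3 libraries from mice without engraftment. The leukemic mice had received HL60 or ML1, which are established human acute myeloid leukemia lines, at 8 to 12 weeks of age and without conditioning. Both lines had been made to release a lipid-permeable mCherry that neighboring cells take up, so that at the early stage, at low engraftment, labeled cells (early ch+) could be sorted apart from unlabeled cells of engrafted marrow (early ch-). At the late stage, Nes-low cells came from mice with heavy engraftment, and the titles of these libraries name no mCherry status. Each of early ch+, early ch- and late held 6 libraries, 3 from each line.

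Several limits follow from the labels and the methods. The reporter is driven by Nestin regulatory sequence, so the gate follows that sequence and not a cell type. Whether a library is 1 mouse or a pool, and which ch+ and ch- libraries shared a mouse, was not stated, nor was any sorting or sequencing date, so p-values measure the spread between these libraries. For the late ML1 libraries, the treatment field of the labels names mice without engraftment, whereas title and time point place them in late, where they were kept. Calls of members in late against ctrl are therefore also given for late HL60 and late ML1 apart. Late against early ch+ and the counts over gene lists pool the lines, which limits them by the same doubt. The extraction text speaks of CD31-labeled cells, while the cell type label names Nes-low mesenchymal cells.

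The mesenchymal label was checked against its markers. Nes had a mean of 7.39 ± 0.24 (SD, n = 3) in ctrl, 7.32 ± 0.24 in early ch-, 7.30 ± 0.38 in early ch+ and 7.30 ± 0.52 in late libraries (SD, n = 6 each), on the log2 scale explained next. By line, late Nes was at 6.92 ± 0.39 with HL60 and 7.68 ± 0.30 with ML1 (SD, n = 3 each). Cxcl12, the chemokine of reticular stromal cells, was at 15.19 ± 0.35 in ctrl and 16.17 ± 0.16 in late libraries. Pecam1, which encodes CD31, was at 5.59 ± 0.36 in ctrl and 4.87 ± 0.44 in late libraries. All 8 genes of the mesenchymal list passed the filter. In late against ctrl 4 were higher and 2 lower (10.2% and 11.4% of all genes). After rescaling to library totals it was 6 and 1, beside 7806 and 517 of the 12976 genes tested. Col1a1 was the most abundant in every group and fell by 2.92 in late against ctrl, with means of 20.32 and 17.40 (limma adjusted p = 1.99e-05; 18.65 in late HL60 and 16.15 in late ML1). The list summed to 1190, 1310 and 1620 kilocounts (lowest, median, highest; normalized counts with the metric prefix kilo) in ctrl, 1010, 1200 and 1400 kilocounts in early ch-, 928, 993 and 1080 kilocounts in early ch+, a median of 554 (highest 579) kilocounts in late HL60 and 175, 196 and 213 kilocounts in late ML1 libraries. In ctrl this sum is mostly Col1a1. The mean log2 value of the list was 12.15 ± 0.05 in ctrl, 12.51 ± 0.10 in late HL60 and 12.24 ± 0.10 in late ML1 libraries (SD, n = 3 each). None of the 10 endothelial genes had a group mean below 0, and they summed to 388, 413 and 454 normalized counts in ctrl, 268, 461 and 573 in early ch-, 376, 611 and 848 in early ch+ and 288, 390 and 565 in late libraries, with Cdh5 the most abundant in all groups but late. Early ch+ HL60 libraries, at 697 to 848, lay above every ctrl library. The endothelial gene Stab2 was at 7.20 ± 0.27 in them and 5.35 ± 0.68 in early ch- HL60 (SD, n = 3 each). With ML1 it went the other way, at 5.26 ± 0.11 in early ch+ and 5.77 ± 0.14 in early ch- (SD, n = 3 each). The endothelial sums with ML1 ran from 376 to 524 in early ch+ and from 444 to 563 in early ch-. The part of endothelial cells in the early comparisons was not tested. None of the 8 tested was called in late, early ch+ or early ch- against ctrl, or in early ch+ against early ch-. The shares of all genes called in each of these comparisons are given further below. After rescaling, 3 were called higher in late against ctrl and 1 in early ch+ against ctrl, beside 7806 and 543 of the 12976 genes. Against early ch+, 4 of the 8 were lower in late (median -0.81), where 10.9% of all genes were. After rescaling 1 was higher and 1 lower, beside 8465 and 590 of all genes.

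All values are the authors' regularized log values of normalized counts. They are read here as log2: the table does not state the base, and the methods speak of a decimal logarithm, so the base is an assumption. Where counts are low, regularization draws a gene's values together, so that differences of weakly expressed genes are understated, and the depth of each library is unknown. Converted from the log scale and summed, a ctrl library came to 11.9 to 14.2 megacounts (normalized counts with the metric prefix mega) and a late library to 7.27 to 9.02 megacounts. With each library rescaled to the mean total, the all-gene median of log2 fold changes shifted in late against ctrl from 0.02 to 0.71, in late against early ch+ from 0.02 to 0.63, in early ch+ against early ch- from -0.02 to 0.13, and in late HL60 against late ML1 from 0.00 to -0.24. This scaling moves all genes of a library alike, so a change of sign under it is set by that shift. Where a rescaled fold change of a member is given, its value relative to this median stands beside it. Differences were tested in limma across 12976 genes, two-sided, and a gene is called at a Benjamini-Hochberg adjusted p under 0.1.

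Late cells differed most from ctrl. Of the 30 members tested, 18 were called in late against ctrl, where 21.5% of all genes were. Of these, 7 were higher and 11 lower, in directions that took 10.2% and 11.4% of all genes. After rescaling to library totals the split became 15 higher and 4 lower, beside 7806 higher and 517 lower of the 12976 genes. With the rRNA gene of the highest value left out of the totals it was 14 higher and 4 lower, beside 5719 and 658 of all genes. The rescaled splits of gene lists in late against ctrl below are to be read beside the same counts. With late HL60 alone against ctrl 13 members were called (all genes 13.7%), and with late ML1 alone 16 (all genes 22%). Late against early ch+, which shares the late libraries, gave 17 calls (all genes 19.7%), 9 higher (8.79%) and 8 lower (10.9%). Rescaled, 16 were higher and 4 lower, beside 8465 and 590 of all genes, or 14 and 7 without the rRNA gene, beside 6782 and 678.

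The early groups moved less. Early ch+ against ctrl gave 3 calls (all genes 6.17%), 2 higher (3.41%) and 1 lower (2.75%), and 4 higher and 1 lower after rescaling (543 and 272 of all genes). Early ch- against ctrl gave 2 calls (all genes 1.92%), none higher (1.13%) and both lower (0.786%). Labeled against unlabeled cells of the early stage, with 6 libraries on each side, gave more calls than either gave against the 3 ctrl libraries: 9 members were called in early ch+ against early ch- (all genes 6.26%), 8 higher in the labeled cells (3.58%) and 1 lower (2.68%). Taken by line, 8 members were called with HL60 (7 higher and 1 lower) and 4 with ML1 (3 higher and 1 lower). Shares of all genes called within each line are not given here, so these counts by line have no background beside them. With the lines pooled and rescaled to library totals, 10 were higher and 1 lower, beside 844 and 229 of all genes (464 and 348 before). Rescaled splits of gene lists in early ch+ against early ch- below are to be read beside the same counts. These comparisons share libraries with each other, and the 3 ctrl libraries stand in every comparison with ctrl. Splits of gene lists and of cell markers below are to be read beside the shares of all genes given here and above for the same comparison.

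**Figure D1:**
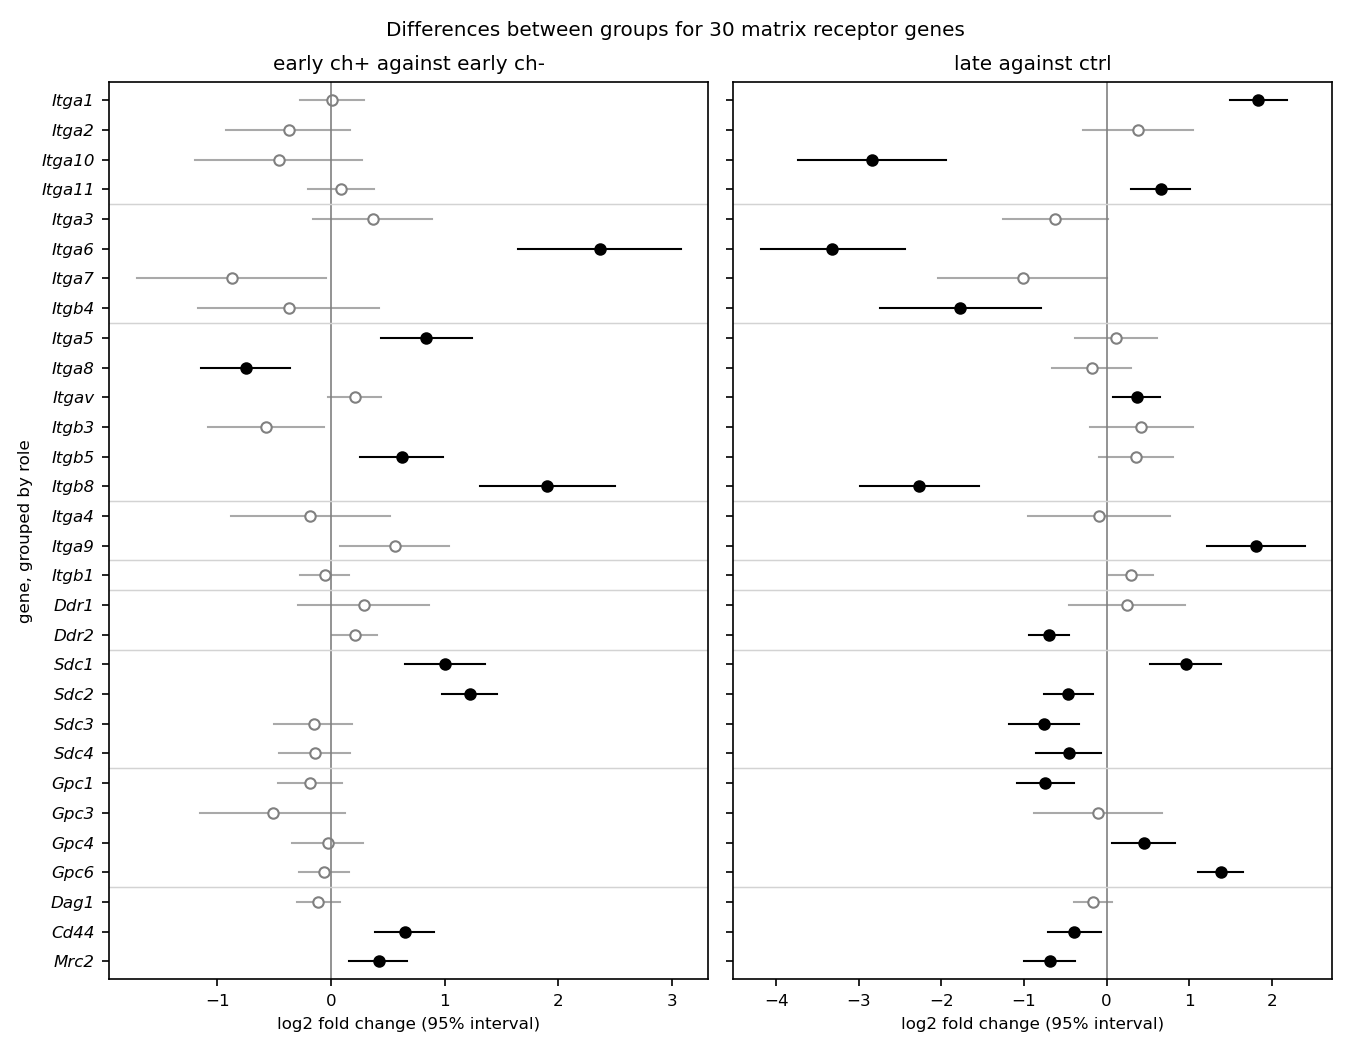
Log2 fold change with its 95% interval for the 30 tested members, by role, in early ch+ against early ch- (left) and late against ctrl (right); filled points are called at an adjusted p under 0.1. Itga6 and Itgb8 lie to the right of 0 on the left and to the left of 0 on the right; with libraries rescaled to their totals all genes shift to the right in late, by which of the called members Sdc2, Sdc4 and Cd44 pass 0 and Mrc2 comes to 0.00, while relative to all genes they are at -0.49, -0.48, -0.41 and -0.71; members not called pass 0 too.

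Collagen-binding chains split in late cells. Itga1 pairs with the beta1 chain to bind collagen IV and other collagens. Its values were 9.80, 9.74 and 9.49 in ctrl, 11.25, 11.15 and 11.27 in late HL60, and 11.84, 11.81 and 11.77 in late ML1. Every late library lay above every other library, and the late ML1 libraries lay above the late HL60 libraries. In early ch- libraries Itga1 ranged from 9.53 to 10.14 (median 9.84) and in early ch+ from 9.52 to 10.10 (median 9.90), both overlapping ctrl. The log2 fold change in late was 1.83 against ctrl (SE 0.17, limma adjusted p = 8.23e-09), or 1.54 with late HL60 alone and 2.13 with late ML1 alone, and 1.68 against early ch+ (SE 0.14, adjusted p = 3.53e-10).

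Itga10, a collagen receptor of cartilage cells, went the other way. It was at 10.48, 10.50 and 10.72 in ctrl, at 10.16, 10.47 and 10.68 in early ch- HL60 and at 10.70, 10.40 and 10.71 in early ch- ML1. In early ch+ cells it was at 10.02, 9.91 and 10.05 with HL60 and at 10.26, 9.72 and 10.36 with ML1. Late HL60 libraries had 8.93, 9.26 and 8.59, and late ML1 libraries 6.80, 5.77 and 7.0. The late libraries lay below all others without overlap, ML1 below HL60, whereas the early ch+ libraries sat just under ctrl. Itga10 fell by 2.84 on the log2 scale in late against ctrl (SE 0.44, limma adjusted p = 1.88e-05), with -1.64 in late HL60 alone and -4.04 in late ML1 alone, while the difference of early ch+ from ctrl was -0.51 (95% interval -1.41 to 0.39, adjusted p = 0.608).

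The other 2 collagen-binding chains changed less or not detectably. Itga11, a receptor for fibrillar collagen, rose by 0.66 in late against ctrl (SE 0.17, limma adjusted p = 0.00734), with late libraries from 10.88 to 11.61 and ctrl from 10.31 to 10.90. Its rise against early ch+ of 0.42 was not called without late HL60 replicate 397 (0.34, adjusted p = 0.114). Itga2 was low, at 3.17 to 4.67 over all libraries, and was not called in any pooled comparison.

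Cartilage and bone markers were read beside these chains. Of 11 tested chondrocyte markers, 11 were lower in late and 10 in early ch+ against ctrl, with medians of -3.61 and -3.95. In early ch+ against early ch- 10 were lower (median -3.20), while in late against early ch+, where Itga10 fell by 2.33 (limma adjusted p = 1.44e-05), 2 were lower and none higher (median 0.12), or 1 lower and 5 higher after rescaling. The 12 listed markers summed to 97.1, 114 and 186 kilocounts in ctrl, 53.3, 78.5 and 109 kilocounts in early ch-, 18.4, 28.0 and 42.7 kilocounts in early ch+, 15.0, 22.2 and 24.4 kilocounts in late HL60 and 3.81, 4.79 and 5.53 kilocounts in late ML1 libraries. Col2a1 was their most abundant gene except in early ch+, where Col11a2 (13.63) and Col2a1 (13.57) were nearly equal, and no marker had a group mean below 0. Itga10 itself had means of 10.06 in early ch+ and 10.52 in early ch-, a difference of -0.46 (95% interval -1.20 to 0.27) that was not called (adjusted p = 0.581) and was called with only the groups compared in the fit. In these bulk samples, fewer cells of a type and less RNA per cell cannot be told apart.

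Osteoblast markers showed another course. None of 9 was called in early ch+ or early ch- against ctrl, and 8 of 9 were lower in late (median -2.45). Against early ch+, 8 of 9 were lower in late too (median -1.82). Their sum was 111, 117 and 123 kilocounts in ctrl, 88.5, 104 and 123 kilocounts in early ch-, 82.6, 89.0 and 99.1 kilocounts in early ch+, 29.9, 39.0 and 39.3 kilocounts in late HL60 and 7.93, 8.39 and 10.8 kilocounts in late ML1 libraries, with none at a group mean below 0. Bglap was the most abundant in ctrl and early ch-, Bglap2 in early ch+ (14.89, beside 14.83 for Bglap) and Ibsp in late libraries (12.51). Of the same lists, 9 of 9 osteoblast and 7 of 11 chondrocyte markers were called higher in late HL60 than in late ML1 (medians 2.01 and 1.99, beside the shift of -0.24 that rescaling to library totals brings). In that comparison 4.09% of all genes were called, 410 higher and 121 lower. The part of these cell types in the fall of Itga10 was not tested.

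**Figure D2:**
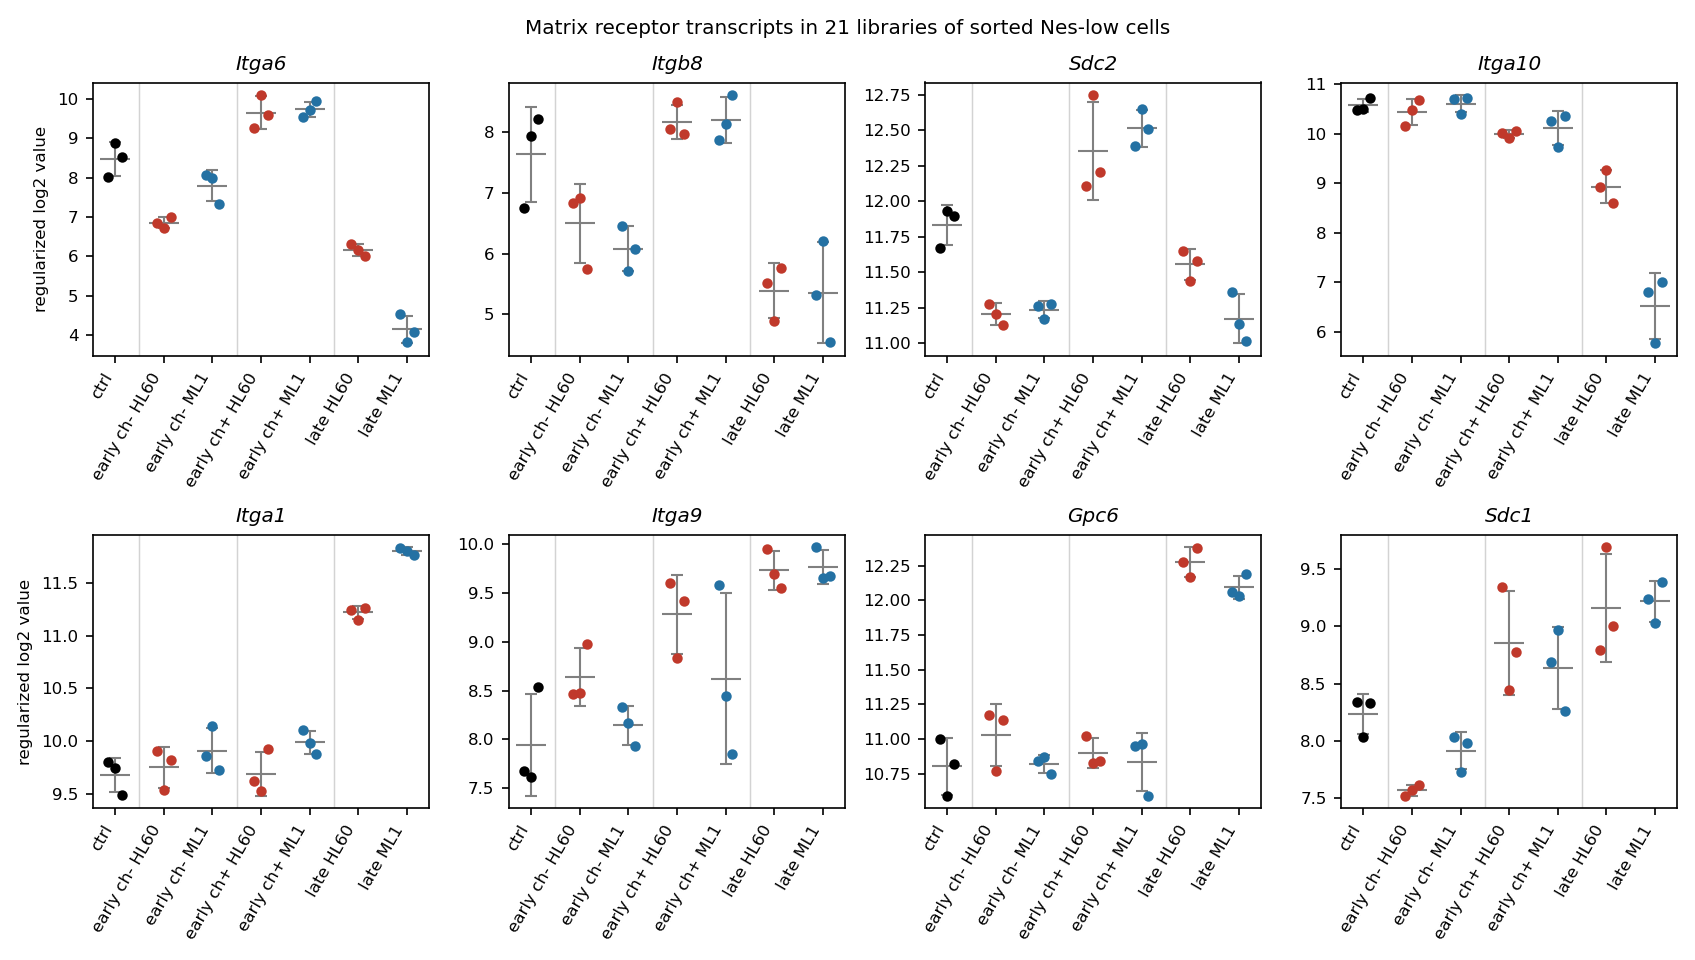
Regularized log2 values of 8 members in each of the 21 libraries (points; black ctrl, red HL60, blue ML1) with the mean and SD of each group of 3 (grey). Itga6, Itgb8 and Sdc2 are higher in early ch+ than in early ch-, Itga10 is lowest in late ML1, and Itga1 and Gpc6 are higher in every late library than in every other library; Sdc2 in late lies below ctrl as plotted and 0.23 above it after rescaling to library totals, or at -0.49 relative to all genes.

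Among laminin-binding chains, Itga6 had the widest range of all members tested against ctrl. Its product pairs with beta1 or beta4 and binds laminins of basement membranes. Itga6 was at 8.01, 8.88 and 8.52 in ctrl, at 6.86, 6.72 and 7.0 in early ch- HL60, and at 8.06, 7.98 and 7.34 in early ch- ML1. Early ch+ libraries had 9.26, 10.10 and 9.58 with HL60 and 9.55, 9.72 and 9.94 with ML1. In late libraries it was at 6.31, 6.17 and 6.01 with HL60 and at 4.53, 3.84 and 4.07 with ML1. The labeled early libraries were the highest of all and did not overlap ctrl, the late libraries were the lowest, and the unlabeled early libraries lay between late and ctrl or at the lower edge of ctrl.

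Labeled cells exceeded unlabeled cells by 2.37 on the log2 scale (SE 0.35, limma adjusted p = 2.66e-05), a ratio of 5.16, and did so with HL60 (2.79, adjusted p = 1.07e-07) and with ML1 (1.95, adjusted p = 4.81e-05). The difference between the lines in this contrast was 0.84 (95% interval 0.02 to 1.66) and not called (adjusted p = 0.778). Against ctrl, early ch+ stood at 1.22, which was not called with the lines pooled (adjusted p = 0.118) and was called in each line taken apart (1.17 with HL60, adjusted p = 0.014; 1.27 with ML1, adjusted p = 0.00545). Late cells were at -3.32 against ctrl (SE 0.43, adjusted p = 1.49e-06; -2.31 in late HL60 and -4.32 in late ML1 alone) and at -4.54 against early ch+ (SE 0.35, adjusted p = 1.04e-10). Early ch- HL60 was below ctrl by itself (-1.61, adjusted p = 0.00117), early ch- ML1 was not called (-0.68, adjusted p = 0.285), and the difference between these 2 groups was not called either (adjusted p = 0.387).

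Itgb4, the beta chain that pairs with alpha6 alone, was weakly expressed. In ctrl it was at 5.48, 5.42 and 6.38, in late HL60 at 4.40, 4.80 and 4.43 and in late ML1 at 3.34, 3.70 and 3.29. Early ch+ libraries spread from 3.44 to 6.10 (median 4.86) and early ch- from 4.40 to 5.75 (median 5.06). Late libraries lay below ctrl without overlap, and the early groups overlapped both. Itgb4 fell by 1.77 in late against ctrl (SE 0.48, limma adjusted p = 0.00868), was called in late ML1 taken alone (-2.32, adjusted p = 0.000801) and was not called in late HL60 taken alone. In early ch+ against early ch-, where Itga6 was higher, Itgb4 stood at -0.37 (95% interval -1.17 to 0.42) and was not called.

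Itga3 and Itga7 complete the laminin-binding group and were not called in any of the 5 pooled comparisons. Itga3 ranged from 5.88 to 7.52 over all libraries and Itga7, known from muscle, from 3.92 to 7.16. The Itga7 values within early ch- alone ran from 4.93 to 7.16.

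RGD-binding integrins recognize a short peptide in fibronectin, vitronectin and the latency peptide of TGF-beta. Itgb8, which pairs with alphaV and binds latent TGF-beta, was at 6.75, 7.94 and 8.23 in ctrl. Early ch+ libraries had 8.05, 8.50 and 7.97 with HL60 and 7.87, 8.14 and 8.62 with ML1, and early ch- libraries 6.83, 6.92 and 5.75 with HL60 and 6.46, 5.71 and 6.08 with ML1. Late libraries had 5.51, 4.89 and 5.77 with HL60 and 5.32, 6.21 and 4.54 with ML1. Labeled early libraries lay above every unlabeled and every late library, and late libraries lay below all of ctrl, in which replicate 373 was lower than the others.

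Itgb8 was higher in early ch+ than in early ch- by 1.90 (SE 0.29, limma adjusted p = 4.09e-05), with 1.68 in HL60 and 2.13 in ML1. It fell by 2.27 in late against ctrl (SE 0.36, adjusted p = 2.33e-05), by nearly the same amount in late HL60 (-2.25) and late ML1 (-2.28). The difference of early ch- from ctrl, -1.35 (adjusted p = 0.0527), was not called without ctrl replicate 374 (-1.20, adjusted p = 0.254), ctrl replicate 375 (-1.05, adjusted p = 0.31), early ch- HL60 replicate 529 (-1.24, adjusted p = 0.108) or early ch- ML1 replicate 544 (-1.23, adjusted p = 0.117).

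Itga5 and Itgb5 were also higher in labeled than in unlabeled cells. Itga5, the alpha chain of the main fibronectin receptor, was at 8.89 to 9.73 (median 9.30) in early ch+ and 7.95 to 9.11 (median 8.40) in early ch- libraries, a difference of 0.84 (SE 0.20, limma adjusted p = 0.00768) with some overlap. Itgb5, a vitronectin receptor chain, differed by 0.63 (adjusted p = 0.0353), which was not called without early ch- HL60 replicate 529 (0.51, adjusted p = 0.112) or early ch+ ML1 replicate 539 (0.53, adjusted p = 0.111). Neither was called in late against ctrl.

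Itga8, a chain found in smooth muscle and mesenchyme that binds nephronectin, was the exception with lower values in labeled cells. It ranged from 7.56 to 8.39 (median 7.92) in early ch+, from 8.11 to 9.05 (median 8.70) in early ch- and from 8.45 to 8.94 (median 8.71) in late libraries. The early ch+ libraries lay below all late libraries and overlapped early ch- at its lower end. The difference was -0.75 against early ch- (SE 0.19, limma adjusted p = 0.0151) and -0.95 against ctrl (adjusted p = 0.0151), the latter not called without ctrl replicate 374 (-0.63, adjusted p = 0.203); late exceeded early ch+ by 0.77 (adjusted p = 0.00435).

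Smooth muscle markers were lower in early ch+ libraries too. Of 11 tested, 8 were lower in early ch+ than in early ch- (median -1.45), 8 were lower in early ch+ than in ctrl, and 7 were higher in late than in early ch+ (median 0.78). In late against ctrl 6 were lower and none higher (median -0.78; 3 lower and 2 higher after rescaling), where Itga8 was not called (-0.18, limma adjusted p = 0.684). Their sum was 13.4, 18.3 and 28.9 kilocounts in ctrl, 9.5, 12.4 and 16.8 kilocounts in early ch-, 4.15, 4.91 and 6.76 kilocounts in early ch+ and 6.19, 9.09 and 10.4 kilocounts in late libraries. Myh11 was the most abundant in ctrl and early ch- and Mylk in early ch+ and late; the defining markers Acta2 and Myh11 were at 9.59 ± 0.52 and 9.82 ± 0.33 in early ch+ libraries (SD, n = 6). Schwann cell markers were lower in early ch+ than in early ch- too, 5 of 6 with S100b higher, and summed to 241, 408 and 488 against 372, 400 and 532 normalized counts, with S100b the most abundant. In late against ctrl 3 of the 6 were lower and none higher (1 lower after rescaling). The part of either cell type in the difference of Itga8 was not tested.

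**Figure D3:**
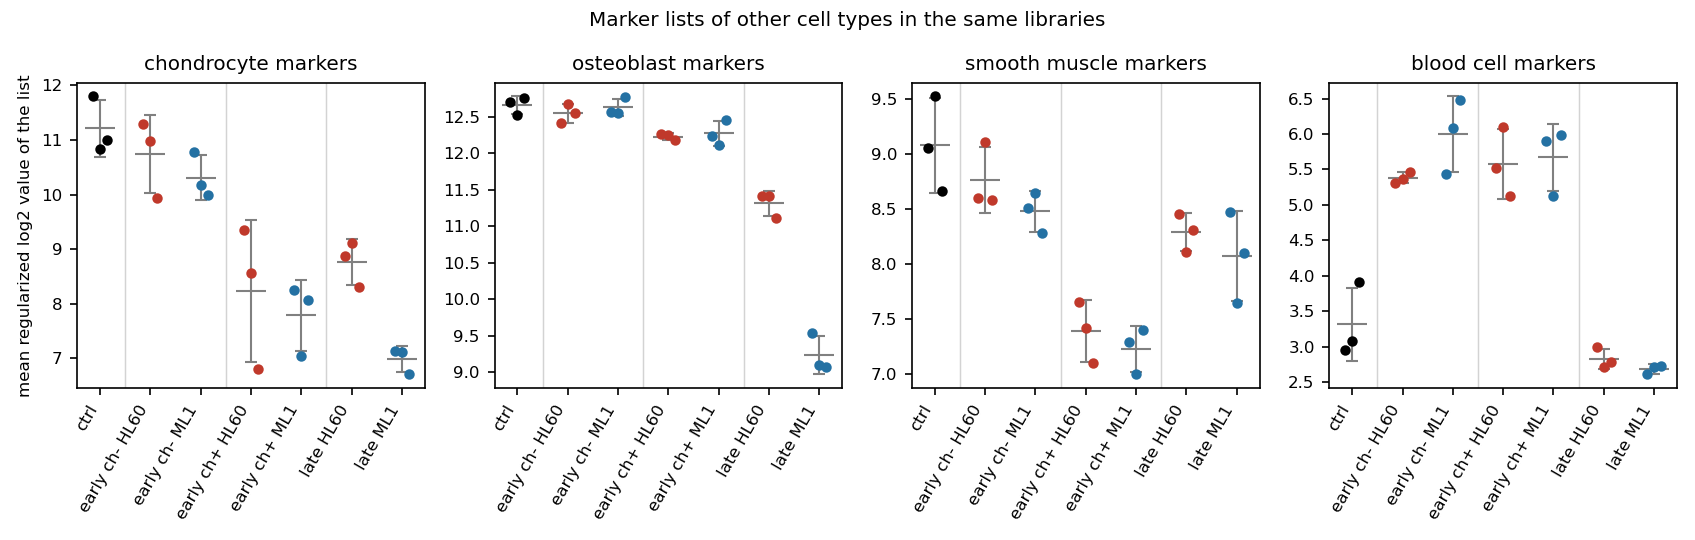
Mean regularized log2 value of 4 marker lists in each library (points; black ctrl, red HL60, blue ML1) with the mean and SD of each group of 3 (grey). Chondrocyte and smooth muscle markers are lower in early ch+ than in early ch-, osteoblast markers are lowest in late ML1, and blood cell markers are higher in both early groups than in ctrl and late.

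Itgav, the alpha chain shared by most RGD-binding pairs, rose slightly in late against ctrl, by 0.37 (limma adjusted p = 0.071), and in late against early ch+, by 0.36 (adjusted p = 0.0266). The first call was lost without any of 5 of the 21 libraries, namely ctrl replicates 373 and 374, late ML1 replicates 581 and 582 and late HL60 replicate 397, with log2 fold changes of 0.29 to 0.37 and adjusted p of 0.101 to 0.272. Itgb3, the partner of alphaV in osteoclasts and of the platelet receptor, was not called in pooled comparisons. In early ch- ML1 it was at 9.42, 8.87 and 8.34, above the ctrl values of 7.65, 7.76 and 7.91 (1.11, adjusted p = 0.045), and in early ch- HL60 at 8.25, 7.69 and 7.20. The difference between the lines was -1.17 and not called (adjusted p = 0.276). The platelet markers summed to 74.4, 51.8 and 37.2 normalized counts in the same early ch- ML1 libraries, in the same order, and to 22.1 to 39.3 in ctrl. Of this list, Ppbp was at 4.82 ± 0.88 in early ch- ML1 and 3.54 ± 0.98 in ctrl (SD, n = 3 each). The platelet integrin gene Itga2b was at 1.76 ± 0.09 and 1.80 ± 0.26 in the same groups, and Gp9, Gp6 and Treml1 were below 0 in both. The part of platelets in the call of Itgb3 was not tested. Itgb6, a chain of epithelia, was between -1.57 and -1.46 in every library.

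Of the alpha4 and alpha9 group, Itga9 rose. Its product pairs with beta1 and binds tenascin-C, osteopontin and VCAM-1. It was at 7.67, 7.61 and 8.54 in ctrl, at 9.95, 9.70 and 9.55 in late HL60 and at 9.97, 9.66 and 9.68 in late ML1. Early ch+ libraries ran from 7.85 to 9.60 (median 9.13) and early ch- from 7.93 to 8.98 (median 8.40). All late libraries lay above ctrl and above early ch-, while early ch+ reached from ctrl up to late values.

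The log2 fold change of Itga9 was 1.81 in late against ctrl (SE 0.29, limma adjusted p = 2.67e-05), nearly equal in late HL60 (1.80) and late ML1 (1.83). In early ch+ it was 1.01 (adjusted p = 0.0399), a call lost without ctrl replicate 373 (0.88, adjusted p = 0.187) or ctrl replicate 374 (0.85, adjusted p = 0.199). By line, early ch+ had means of 9.28 ± 0.40 with HL60 and 8.62 ± 0.88 with ML1, beside 7.94 ± 0.52 in ctrl (SD, n = 3 each). Itga4, used mainly by blood cells, ranged from 3.24 to 5.69 and was not called in any pooled comparison. Itgb7, the lymphocyte partner of alpha4, was at 1.56 to 2.95 and was not tested.

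Itgb1, the beta chain that most of these alpha chains share, varied little. It was at 11.67 to 11.97 in ctrl, 11.63 to 11.92 in early ch-, 11.52 to 11.90 in early ch+ and 11.85 to 12.38 in late libraries. Late exceeded early ch+ by 0.43 (SE 0.10, limma adjusted p = 0.00404), and late against ctrl, 0.30, was not called (adjusted p = 0.122). Taken alone, late ML1 was above ctrl (0.45, adjusted p = 0.0108).

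The discoidin receptors differed from each other. Ddr2, the kinase of mesenchymal cells for fibrillar collagen, was at 11.17 to 11.40 in ctrl, 11.09 to 11.50 in early ch+, 10.92 to 11.19 in early ch- and 10.47 to 10.79 in late libraries, below all others without overlap. Ddr2 fell by 0.70 in late against ctrl (SE 0.12, limma adjusted p = 5.94e-05), in late HL60 (-0.63) and late ML1 (-0.77) alike, and rescaled to library totals the log2 fold change was -0.01, or -0.72 relative to all genes. Ddr1, the epithelial member, ranged from 5.70 to 7.51 and was not called.

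All 4 syndecans were called in late against ctrl, Sdc1 higher and the others lower, though the shift of all genes takes Sdc2 and Sdc4 above 0 when libraries are rescaled to their totals. Sdc2, the syndecan of fibroblasts and bone cells, was at 11.67 to 11.93 (median 11.90) in ctrl, 11.13 to 11.28 (median 11.24) in early ch-, 12.11 to 12.75 (median 12.45) in early ch+ and 11.02 to 11.65 (median 11.40) in late libraries. The labeled early libraries lay above ctrl and the unlabeled ones below it, with no overlap among these 3 groups. Sdc2 in early ch+ exceeded early ch- by 1.22 (SE 0.12, limma adjusted p = 2.7e-08) and ctrl by 0.60 (adjusted p = 0.0114), and it did so in HL60 and in ML1. In early ch- it was below ctrl by 0.61 on the log2 scale (-0.61, adjusted p = 0.0264), which was not called without ctrl replicate 374 (-0.56, adjusted p = 0.158) or 375 (-0.58, adjusted p = 0.133).

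In late cells, Sdc2 was at -1.07 against early ch+ (SE 0.12, adjusted p = 6.12e-08) and at -0.47 against ctrl (adjusted p = 0.0227, and 0.107 without ctrl replicate 374), turning to 0.23 under rescaling to library totals, or -0.49 relative to all genes. Sdc1, the syndecan of plasma cells and epithelia, was at 8.03 to 8.34 (median 8.33) in ctrl, 7.52 to 8.03 (median 7.67) in early ch-, 8.26 to 9.34 (median 8.74) in early ch+ and 8.79 to 9.69 (median 9.13) in late libraries. Labeled cells lay above all unlabeled cells, and late cells above all of ctrl. Sdc1 rose by 1.00 in early ch+ against early ch- (SE 0.17, limma adjusted p = 0.00024) and by 0.96 in late against ctrl (SE 0.21, adjusted p = 0.00159). Its difference of 0.44 between late and early ch+ was lost without any of 7 libraries (0.34 to 0.45, adjusted p of 0.112 to 0.226): late ML1 replicates 581 and 583, late HL60 replicate 398, early ch+ HL60 replicates 524 and 525 and early ch+ ML1 replicates 538 and 541.

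Sdc3 was at 12.00, 11.68 and 11.82 in ctrl, at 11.81, 11.06 and 11.75 in late HL60 and at 10.79, 10.46 and 10.57 in late ML1. Only the late ML1 libraries lay apart, below all others. The pooled difference of late from ctrl was -0.76 (SE 0.20, limma adjusted p = 0.00877), made up of -1.23 in late ML1 (adjusted p = 4.3e-07) and -0.29 in late HL60, which was not called (adjusted p = 0.283). Rescaling to library totals moved the all-gene median there from 0.02 to 0.71, about the size of this pooled difference. After it 4 members were called lower, beside 11 before. Sdc4, a partner of integrins in focal adhesions, was at 9.81 to 10.91 in late and 10.47 to 11.08 in ctrl libraries; its log2 fold change of -0.46 (adjusted p = 0.0992) became 0.23, above ctrl, under rescaling to library totals, or -0.48 relative to all genes, and the call was lost without any of 14 of the 21 libraries (-0.47 to -0.35, adjusted p of 0.1 to 0.345), namely ctrl replicates 373 and 375, late ML1 replicate 582, each late HL60 and each early ch+ library, and early ch- ML1 replicates 543 and 546.

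Glypicans are anchored to the membrane by a lipid. Gpc6 was at 10.59 to 11.00 (median 10.82) in ctrl, 10.75 to 11.17 (median 10.85) in early ch-, 10.59 to 11.02 (median 10.90) in early ch+ and 12.03 to 12.38 (median 12.18) in late libraries. The late libraries stood above the rest by a wide margin and the other groups overlapped. The rise was 1.38 against ctrl (SE 0.13, limma adjusted p = 1.38e-08), 1.47 in late HL60 and 1.29 in late ML1.

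Gpc1, the glypican that binds fibroblast growth factors among other ligands, was at 11.25, 10.85 and 11.21 in ctrl, at 10.78, 10.74 and 10.49 in late HL60 and at 10.12, 9.78 and 10.26 in late ML1. Late libraries lay below ctrl, with late ML1 the lowest. It fell by 0.74 in late against ctrl (SE 0.17, limma adjusted p = 0.00223) and by 0.53 against early ch+ (adjusted p = 0.00733), where rescaling to library totals turned the sign to 0.09, or -0.54 relative to all genes. In late against ctrl, rescaling moved the all-gene median from 0.02 to 0.71, about the size of the fall of Gpc1. After it 4 members were called lower there, beside 11 before. Gpc4 rose by 0.45 in late against ctrl (adjusted p = 0.0979), and by 0.76 against early ch+ (adjusted p = 0.000363). The first call was lost without any of 13 libraries (0.39 to 0.51, adjusted p of 0.1 to 0.269), namely each ctrl and each late HL60 library, late ML1 replicate 582, early ch+ HL60 replicates 524 and 525, early ch+ ML1 replicate 538, early ch- HL60 replicate 527 and early ch- ML1 replicates 543 and 546. Gpc3, at 4.09 to 6.37, was not called.

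Of the remaining receptors, Cd44 binds hyaluronan and Mrc2 takes up collagen fragments into the cell. Cd44 was at 9.96 to 10.04 in ctrl, 9.45 to 10.11 in early ch-, 10.24 to 10.84 in early ch+ and 9.47 to 9.78 in late libraries, so that labeled cells were highest without overlap. It was higher in early ch+ than in early ch- by 0.65 (SE 0.13, limma adjusted p = 0.00128) and lower in late than in early ch+ (-0.84, adjusted p = 1.17e-05). Its log2 fold change of -0.39 in late against ctrl (adjusted p = 0.092) became 0.30, above ctrl, under rescaling to library totals, or -0.41 relative to all genes, and the call was lost without any of 9 of the 21 libraries (-0.41 to -0.36, adjusted p of 0.1 to 0.224), namely each ctrl and each late ML1 library, late HL60 replicate 398, early ch+ HL60 replicate 525 and early ch- HL60 replicate 527. Mrc2 was at -0.69 in late against ctrl (adjusted p = 0.00128), which became 0.00 after rescaling, or -0.71 relative to all genes, and exceeded early ch- in early ch+ by 0.42 (adjusted p = 0.0456; lost without early ch+ HL60 replicate 524, early ch- HL60 replicates 527 or 529, or early ch+ ML1 replicate 538, 0.35 to 0.38, adjusted p of 0.114 to 0.132). Dag1, the laminin receptor of the dystrophin complex, was at 11.62 to 12.10 in every library and was not called; its log2 fold change in late against ctrl, -0.16, became 0.53 after rescaling to library totals, or -0.18 relative to all genes.

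Because of the label of the late ML1 libraries, the calls in late against ctrl were also read with each line alone. With late HL60 alone, Sdc1 (0.93), Gpc1 (-0.43), Mrc2 (-0.57), Itga11 (0.90), Gpc4 (0.62) and Sdc4 (-0.70) were still called by limma, the last 2 at adjusted p of 0.0544 and 0.0179. Itgb4 (-1.22, adjusted p = 0.129), Sdc2 (-0.28, adjusted p = 0.267), Sdc3, Cd44 (-0.33, adjusted p = 0.263) and Itgav (0.35, adjusted p = 0.158) were not called with late HL60 alone. With late ML1 alone, Sdc1 (0.98), Gpc1 (-1.05), Mrc2 (-0.81), Sdc2 (-0.66), Cd44 (-0.45) and Itgav (0.38) were called, and Itga11 (0.42, adjusted p = 0.114), Gpc4 (0.28, adjusted p = 0.429) and Sdc4 (-0.23, adjusted p = 0.513) were not. The pooled values of Sdc2, Sdc4, Cd44 and Mrc2 after rescaling to library totals are given with each gene; the rescaling was not applied line by line here.

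The leukemia lines were compared directly at each stage. In late cells 5 members differed between HL60 and ML1 (all genes 4.09%): Itga10, Itga6, Sdc3 and Gpc1 were higher and Itga1 lower in late HL60. After rescaling to library totals 3 were higher and 5 lower, beside 261 and 444 of all genes (410 and 121 before). The largest differences were those of Itga10, 2.40 (SE 0.24, limma adjusted p = 1.86e-08), and Itga6, 2.02 (SE 0.28, adjusted p = 1.13e-05). Sdc3 differed by 0.93 (adjusted p = 0.00015), Gpc1 by 0.61 (adjusted p = 0.0213) and Itga1 by -0.58 (adjusted p = 0.0251). The last 2 were lost on leaving out a library: Gpc1 without late ML1 replicate 582 or late HL60 replicates 397 or 398 (0.48 to 0.58, adjusted p of 0.103 to 0.195), and Itga1 without late ML1 replicate 581 or late HL60 replicate 398 (-0.57 to -0.55, adjusted p of 0.104 to 0.12).

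At the early stage limma called no member between the lines. In early ch+ 0 of 30 were called, where 0.0154% of all genes were, and in early ch- 0, where 0.0539% were. For the difference between the lines in early ch+ against early ch- 0 were called, where 0.00771% of all genes were. Members with an unadjusted limma p under 0.05 numbered 1, 4 and 2, in the same order. The share of all genes under that unadjusted p is not given here, so these counts have no background beside them. With 3 libraries a line, a p that misses the threshold does not show that the lines were alike.

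The ligands of these receptors were measured in the same libraries. Of 11 collagens, 4 were higher and 7 lower in late against ctrl (10.2% and 11.4% of all genes), with a median of -2.72 beside 0.02 for all genes. Col2a1 fell by 3.94, Col9a1 by 3.87, Col11a1 by 3.31 and Col10a1 by 2.96, and Col1a1, named as the most abundant, by 2.92. The 4 higher ones, named after the values were seen, were Col4a1 (1.62), Col6a1 (1.52), Col4a2 (1.27) and the fibrillar chain Col3a1 (1.02). Early ch+ against early ch- had 2 higher and 3 lower (3.58% and 2.68% of all genes; 3 and 3 after rescaling to library totals), with Col10a1 at -4.14, Col9a1 at -3.74 and Col2a1 at -1.82. The lower collagens thus include chondrocyte genes, whose summed levels are given with Itga10. In late against ctrl they also include Col1a1, which is not on the chondrocyte list. Osteoblast markers, described after Itga10, were lower in late too. The part of either cell type in the fall of the collagens was not tested.

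Of 9 tested laminin chains, 4 were higher and 2 lower in late against ctrl (10.2% and 11.4% of all genes), or 5 and 0 after rescaling to library totals. Lama1 rose by 2.02, Lama4 by 1.81 and Lamb1 by 1.71 in late against ctrl. In early ch+ against early ch-, 3 of 9 were higher and 2 lower (3.58% and 2.68% of all genes), or 3 and 1 after rescaling, with Lamc3 at -1.43 (limma adjusted p = 0.0588).

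Fibronectin (Fn1), the ligand of the Itga5 chain, was the most changed of 17 tested ligands of RGD-binding and alpha4 or alpha9 integrins. It was higher in early ch+ than in early ch-, with means of 17.63 and 15.03, a difference of 2.59 (SE 0.19, limma adjusted p = 2.7e-10), and lower in late than in ctrl, with means of 14.20 and 16.63 (-2.43, adjusted p = 1.85e-08). In late against ctrl 5 of these ligands were higher and 4 lower (10.2% and 11.4% of all genes), and rescaling to library totals made this 11 and 4; Fbn1 stood at 2.36, Npnt, the ligand of Itga8, at -2.18 and Thbs1 at -1.61. In early ch+ against early ch- 2 were higher and 2 lower (3.58% and 2.68% of all genes).

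Of 24 tested partners of integrins inside the cell, 5 were higher and 1 lower in late against ctrl (10.2% and 11.4% of all genes; 21 and 1 after rescaling to library totals), with Tns3 at 1.28 and Lims2 at -1.46. In early ch+ against early ch- 4 were higher and none lower (3.58% and 2.68% of all genes): they include the talin gene Tln2 (1.16), Lims2 (1.05) and the kindlin gene Fermt2 (0.92).

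Genes that build or edit heparan sulfate, the sugar chain of syndecans and glypicans, had 5 higher and 3 lower of 17 tested in late against ctrl (10.2% and 11.4% of all genes; 11 and 1 after rescaling). The xylosyltransferase Xylt1, which starts the chain, was at -2.49, the sulfatase Sulf1 at 1.49 and the sulfotransferase Hs6st1 at 1.35. In early ch+ against early ch- only Sulf2 was called among these 17, where 6.26% of all genes were (1.64, limma adjusted p = 0.000205). Genes of hyaluronan, the ligand of Cd44, had 1 higher and 4 lower of 9 tested in late (10.2% and 11.4% of all genes; 3 and 3 after rescaling), with Hapln1 at -3.61, Cemip at -2.49 and the synthase gene Has1 at -2.35. Has1 was higher in early ch+ than in early ch- by 2.28 (adjusted p = 0.000102), next to the higher Cd44, and Hapln1, a cartilage gene, lower (-2.68). Among 16 partners of dystroglycan, 2 were higher and 3 lower in late (10.2% and 11.4% of all genes, or 8 and 1 members after rescaling), with Dtna at -2.26, Hspg2, the perlecan gene, at -0.88, Utrn at -0.80 and Sgce at 0.79. In early ch+ against early ch- none was higher and 2 were lower (3.58% and 2.68% of all genes), among them Utrn (-0.43). This split became 2 higher and 0 lower after rescaling, beside 844 higher and 229 lower of all genes.

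Integrins of leukocytes and platelets were followed as a sign of blood cells. Per the methods, human and mouse CD45-positive cells had been depleted before the sort, and the rest stained for CD45 and Ter119, so blood and red cells were meant to be removed. Of 8 genes 3 passed the filter, and 2 of these, Itgam and Itgb2, were higher in early ch+ (2.62 and 1.26) and in early ch- (2.34 and 1.57) than in ctrl. None was called in late against ctrl or in early ch+ against early ch-. Of 8 tested blood cell markers, 7 were higher in early ch+ and 6 in early ch- against ctrl, and the 12 listed summed to 112, 148 and 514 normalized counts in ctrl, 1240, 1460 and 2620 in early ch-, 961, 1800 and 2390 in early ch+ and 80.4, 89.3 and 112 in late libraries. In late against ctrl 3 of the 8 tested were lower and none higher (1 lower and none higher after rescaling). S100a9 was the most abundant in early ch- and early ch+ (8.82 and 8.93) and Lcp1 in ctrl (5.35). Ptprc, a defining marker, was at 2.56 ± 0.06 (SD, n = 3) in ctrl and 4.79 ± 0.70 in early ch+ libraries (SD, n = 6).

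Red cell markers were higher than ctrl in early ch+ for 7 of 7 and in early ch- for 6 of 7, and summed to 230, 367 and 552 normalized counts in ctrl, 3910, 5850 and 7980 in early ch-, 3220, 6320 and 9800 in early ch+ and 78.1, 80.9 and 106 in late libraries, with Hbb-bs the most abundant. Skeletal muscle markers were higher in early ch+ than in ctrl for 4 of 4 tested; the 8 listed summed to 54.2, 59.1 and 126 normalized counts in ctrl, 86.9, 191 and 326 in early ch-, 157, 316 and 611 in early ch+ and 36.9, 38.8 and 39.8 in late libraries, with Acta1 the most abundant in all groups but late. Of 8 platelet markers 1 was tested and not called against ctrl, and they summed to 74.4 normalized counts at most, with Gp9, Gp6 and Treml1 below 0 on the log2 scale in every group and Ppbp the most abundant. None of the blood cell or red cell markers was called in early ch+ against early ch-. Of 7 red cell markers 2 were lower and none higher in late against ctrl (2 lower and 1 higher after rescaling). In late against early ch+, 8 of 8 blood cell (median -4.08), 7 of 7 red cell (-3.44) and 4 of 4 skeletal muscle markers (-2.80) were lower, beside the 17 calls of members there. The part of these cells in any comparison was not tested.

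Markers of reticular stromal cells rose in late cells alongside Itga1, Itga9 and Gpc6. Of 8 tested, 6 were higher and 1, Pdgfra, lower in late against ctrl (8 and 0 after rescaling to library totals), and Pdgfra went from -0.38 to 0.32 after rescaling, which is below the shift of all genes; 5 were higher in early ch+. Their sum was 44.4, 51.4 and 69.2 kilocounts in ctrl, 47.1, 73.2 and 90.1 kilocounts in early ch-, 75.2, 95 and 114 kilocounts in early ch+ and 106, 114 and 132 kilocounts in late libraries, with Cxcl12 the most abundant. Whether the share of such cells bears on the rise of these receptors was not tested.

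Per length, the receptors spanned a wide range of levels. On the log2 scale of normalized counts per kilobase of exon, Sdc2 (10.02 ± 0.14), Itgb1 (9.82 ± 0.16) and Sdc4 (9.49 ± 0.33) had the highest levels in ctrl (SD, n = 3), and neighbors in this order lay within their combined spread. Itgb6 (-4.39) had the lowest level and Itgb7 (0.15) the next. Between ctrl and late, Gpc6 moved from rank 10 to rank 3 of the 32 and Itga10 from rank 9 to rank 21, on levels per kilobase of 8.12 and 9.50 for Gpc6 and of 8.19 and 5.35 for Itga10. The late level of Itga10 pools lines that differ (SD 1.40, n = 6), so its rank holds for the pooled mean only. Before division by length, late Itga10 was at 8.93 with HL60 and 6.53 with ML1.

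Promoter sequences of 250 bases before to 50 after the start were matched for 24 of the 32 members in RefSeq (GRCm38.p6). These 24 members had 30 promoters, so that some had more than 1. Of 4 motifs searched on both strands, the GC box GGGCGG was in 19 of the 30 promoters (35.7% of all 32851 promoters hold it). The TEAD core CATTCC was in 3 (14.7%), the AP-1 motif TGANTCA in 3 (7.81%) and the TATA box TATAAA in 1 (13.6%). By gene, the GC box was found for 15 of the 24 members. The promoters of Itga10 and Itga1 are shown because these collagen receptors moved in opposite directions in late cells, and those of Itgb8 and Sdc1 because both were higher in labeled than in unlabeled early cells. Capitals mark motif matches: CATTCC in Itga10 and GGGCGG at 3 places in Sdc1, with no match in Itga1 and Itgb8. They lie at chr3:96645334-96645633 on the plus strand (Itga10), chr13:115101915-115102214 on the minus strand (Itga1), chr12:119238227-119238526 on the minus strand (Itgb8) and chr12:8771146-8771445 on the plus strand (Sdc1).
Itga10: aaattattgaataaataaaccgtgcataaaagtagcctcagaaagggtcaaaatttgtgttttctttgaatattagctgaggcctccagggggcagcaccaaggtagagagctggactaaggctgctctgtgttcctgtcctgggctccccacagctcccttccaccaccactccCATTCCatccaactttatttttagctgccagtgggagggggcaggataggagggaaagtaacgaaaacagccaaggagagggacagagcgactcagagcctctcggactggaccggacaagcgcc
Itga1: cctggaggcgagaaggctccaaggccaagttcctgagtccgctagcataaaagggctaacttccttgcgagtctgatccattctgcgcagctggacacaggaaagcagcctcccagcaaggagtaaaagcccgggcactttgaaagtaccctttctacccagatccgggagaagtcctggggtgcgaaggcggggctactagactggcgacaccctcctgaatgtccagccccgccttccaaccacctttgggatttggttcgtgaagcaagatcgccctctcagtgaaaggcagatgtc
Itgb8: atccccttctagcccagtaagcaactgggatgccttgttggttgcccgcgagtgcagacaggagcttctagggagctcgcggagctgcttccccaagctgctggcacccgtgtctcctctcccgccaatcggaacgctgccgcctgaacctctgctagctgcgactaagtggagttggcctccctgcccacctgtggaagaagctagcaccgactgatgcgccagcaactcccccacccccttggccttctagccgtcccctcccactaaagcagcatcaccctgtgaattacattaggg
Sdc1: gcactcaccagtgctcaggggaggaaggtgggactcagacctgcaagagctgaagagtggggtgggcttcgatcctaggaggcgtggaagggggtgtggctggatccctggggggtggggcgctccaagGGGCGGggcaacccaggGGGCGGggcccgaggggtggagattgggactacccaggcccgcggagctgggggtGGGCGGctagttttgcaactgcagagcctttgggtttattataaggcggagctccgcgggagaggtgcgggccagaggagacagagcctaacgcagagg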

How the data were processed

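RNA-seq of 21 libraries was used as deposited: per the labels, the authors aligned reads to mm10 with STAR 2.5.1b, quantified genes with RSEM 1.2.29 and made regularized log values of normalized counts with DESeq2 1.10.1. The deposited values, whose base the table does not state, were taken as log2 and analyzed in R 4.3.3 with limma 3.58.1 (trend, two-sided, Benjamini-Hochberg adjusted over 12976 genes with a mean log2 value of at least 3.32), in a fit of 4 groups and a fit of 7 groups that kept the lines apart. Python 3.11.15, pandas 2.3.3 and matplotlib 3.10.9 made summaries and figures. Counts were not used here, so the depth of each single library and the precision it gives are unknown.

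Members and lists were chosen with earlier results of these data known. A member was described library by library or by the lowest, median and highest value if called with a log2 fold change of size 1 or more in a pooled comparison or called between the lines. Itgb3, Itga5 and Itga8 were described in this way too, without meeting that rule. Most others were given by range. Alternatives changed the filter, scaling, variance model, libraries in the fit, pooling of lines and thresholds, and left out each library in turn.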

Additional observations from a re-analysis of the deposited data

Results flagged for a closer look

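In 1 of 90 groups of 6 libraries screened, a library stood apart from the others: Itgb5 was at 9.92 in late ML1 replicate 581 and at 9.39 to 9.58 in the other late libraries, a gap of 0.653 of the group's range against a critical value of 0.625. Chance alone sets about 1 in 20 such groups apart.

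For 5 members the late HL60 and late ML1 libraries differed by a direct limma test of the difference. The log2 difference of HL60 from ML1 was 2.40 for Itga10, 2.02 for Itga6, 0.93 for Sdc3, 0.61 for Gpc1 and -0.58 for Itga1. The treatment field that names the late ML1 mice as not engrafted bears on all 5, and its part in them was not tested.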

How the results depend on the processing

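The counts of members called in late against ctrl, early ch+ against early ch- and late against early ch+ were within 1.5 times their values under every alternative but a minimum absolute log2 fold change of 1, which left 7, 4 and 6; it left 1 in early ch+ against ctrl, 1 in early ch- against ctrl and 2 in late HL60 against late ML1. Early ch+ against ctrl gave 5 calls with libraries rescaled to their totals, 5 with the totals taken without the rRNA gene, 7 with only the groups compared in the fit and 6 as a mean over lines. Early ch- against ctrl gave 1 call with no filter, 1 with no variance trend, 1 with array weights and 1 at an adjusted p under 0.05. Late HL60 against late ML1 gave 8 calls rescaled to totals, 3 with no variance trend, 11 with array weights and 8 with only the groups compared. Rescaled to totals, 815 of all genes were called in early ch+ against ctrl (800 before, 755 without the rRNA gene) and 705 in late HL60 against late ML1 (531 before). Counts of all genes under the other alternatives named here, and with a library left out, are not given. Those counts of members therefore have no background beside them. The cause of the changes in the counts of members was not tested.

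Rescaling to totals moves all genes alike. Among members called before or after it, that shift turned the sign in late against ctrl of Cd44 (0.30; 0.12 without the rRNA gene; -0.41 relative to all genes), Sdc4 (0.23; 0.05; -0.48), Sdc2 (0.23; 0.04; -0.49), Dag1 (0.53; 0.35; -0.18) and Itga8 (0.51; -0.20), brought Mrc2 to 0.00 (-0.71), and turned the sign in late against early ch+ of Gpc1 (0.09; -0.54) and Dag1 (0.56; 0.43; -0.08). Members not called there turned too. Relative to all genes each named member kept its sign.

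Leaving out each library in turn gave 14 to 18 calls in late against ctrl, 2 to 4 in early ch+ against ctrl, 0 to 2 in early ch- against ctrl, 8 to 10 in early ch+ against early ch-, 16 to 19 in late against early ch+ and 3 to 5 in late HL60 against late ML1, and 0 to 0 in each early comparison of the lines. Of 54 calls of members 39 were kept without each library and 15 were lost without some library. No paired analysis was possible because the labels do not say which libraries shared a mouse. The depth of each single library is not given, and regularized values understate differences of weakly expressed genes.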
